A study of Mus musculus with 8 samples.

Results

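The 9 genes described here encode enzymes of triglyceride synthesis: Gpam, Agpat2, Agpat3, Lpin1, Lpin2, Lpin3, Dgat1, Dgat2 and Mogat1. They were found by their symbols in a table of estimated RNA counts for 45706 genes, and all 9 were present and passed the filter on low counts, as 9 of 14629 genes tested. The table covers the livers of 8 female mice, 1 library each, taken after an overnight fast at an age of 4 months. The 4 WT mice were of strain C57BL/6J. The 4 S155A mice, of the same strain in the labels, carried a CRISPR-Cas9 change in Plin5, a lipid droplet protein, in which the codon of the serine that the name S155A marks was replaced by one for alanine. The S155A mice were homozygous for the change (SA/SA). The change was in the germline, so that every tissue carried it, and its sequence had been checked in a founder mouse. Whether the WT mice were littermates is not given in the sources used here.

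Triglycerides are built on the endoplasmic reticulum by adding fatty acyl chains to a glycerol backbone. Acyltransferases turn glycerol 3-phosphate into lysophosphatidate and then phosphatidate, lipins remove the phosphate to give diacylglycerol, and diacylglycerol acyltransferases add the last chain. In liver the product is stored in lipid droplets or secreted in lipoproteins. Fasting brings fatty acids from adipose tissue to the liver, where they are either oxidized or esterified again along this route.

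The total count of a library was between 39709785 and 54540864, and the 9 enzymes together took between 0.14% and 0.17% of it. In the labels the tissue is liver and the cells are hepatocytes. All 8 hepatocyte markers were detected, with summed CPM between 97626 and 138731 (CPM, the count scaled to a fixed library size after TMM normalization). Markers of Kupffer, endothelial and stellate cells were also detected, with summed CPM of 149 to 360.0, 97.7 to 161 and 98.8 to 297. Adipocytes also make triglycerides, and the summed CPM of 8 adipocyte markers was between 357 and 1140. Of these, 3 passed the filter on low counts: Car3 with up to 1113 CPM, Lipe with up to 25.1 CPM and Fabp4 with up to 6.05 CPM in any library. The other 5 were near 0, with at most 19 counts of Adipoq, 9 of Plin1, 17 of Cfd and 1 of Retn in any library and 0 of Lep. In whole tissue, fewer cells of a type and less RNA per cell cannot be told apart. One library, S155A replicate 3, had a summed CPM of 2061 for lymphocyte and plasma cell markers, against 18.9 to 45.3 in the other 7. WT replicate 2 had 39.9 CPM of pancreatic acinar markers, against 4.18 to 6.43 in the others.

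Promoter windows of 250 bases before an annotated start were read from RefSeq (GRCm38.p6). They were found for 7 of the 9 genes, as 11 windows. Windows of 3 genes are shown, because the RNAs of Lpin1 and Agpat2 ran in nearly opposite order over the 8 mice and Lpin2 supplied most of the lipin RNA. Capitals mark matches, on either strand, to CACGTG (E-box), TGACGTCA (cAMP response element), CCAAT (the box of that name) or AGAACA (glucocorticoid receptor half-site), none of which contains another.
Lpin1, chr12:16610967-16611216, reverse strand: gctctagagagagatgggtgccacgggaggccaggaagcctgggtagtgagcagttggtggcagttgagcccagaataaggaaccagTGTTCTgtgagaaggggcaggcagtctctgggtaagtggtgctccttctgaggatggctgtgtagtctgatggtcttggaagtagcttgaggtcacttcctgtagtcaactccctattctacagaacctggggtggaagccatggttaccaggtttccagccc
Agpat2, chr2:26604418-26604667, reverse strand: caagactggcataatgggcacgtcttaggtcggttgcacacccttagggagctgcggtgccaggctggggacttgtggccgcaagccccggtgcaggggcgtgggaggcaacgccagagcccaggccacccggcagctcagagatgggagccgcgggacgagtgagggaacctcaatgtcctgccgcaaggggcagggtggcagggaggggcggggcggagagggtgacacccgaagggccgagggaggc
Lpin2, first start, chr17:71183282-71183531, forward strand: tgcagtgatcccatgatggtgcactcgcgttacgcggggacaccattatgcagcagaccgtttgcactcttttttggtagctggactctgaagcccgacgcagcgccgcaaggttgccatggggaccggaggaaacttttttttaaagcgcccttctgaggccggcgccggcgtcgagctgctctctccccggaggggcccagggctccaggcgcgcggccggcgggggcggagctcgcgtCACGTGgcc
The Lpin1 window held 1 match, to the half-site on the complementary strand, the Agpat2 window held 0 and this Lpin2 window held 1, to the E-box. Lpin2 had 3 windows, of which the second held 0 matches and the third 3 to the CCAAT box and 1 to the half-site. Among 32851 mouse promoter windows of the same length, 6.02% held the E-box, 1.55% the cAMP response element, 33.8% the CCAAT box and 16.1% the half-site. A match describes the letters of a window and was not tested as a binding site.

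The comparison of S155A with WT livers asked whether mice whose Plin5 cannot be phosphorylated at this serine differ in liver RNA during fasting. No enzyme passed the test across all genes. In S155A livers 5 enzymes had a higher fitted level and 4 a lower one, with a median log2 fold change of 0.022, against -0.0050 over all genes tested. The quasi-likelihood test of edgeR called 0 of the 9 at an adjusted p under 0.05, and the share called among all genes was 0.00%. DESeq2 also called 0 of the 9. At an unadjusted p under 0.05, edgeR gave 1 of the 9, Dgat1, where 3.40% of all genes passed. Dgat1 was also the 1 enzyme whose values did not overlap between genotypes, which was so for 2.30% of all genes.

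**Figure D1:**
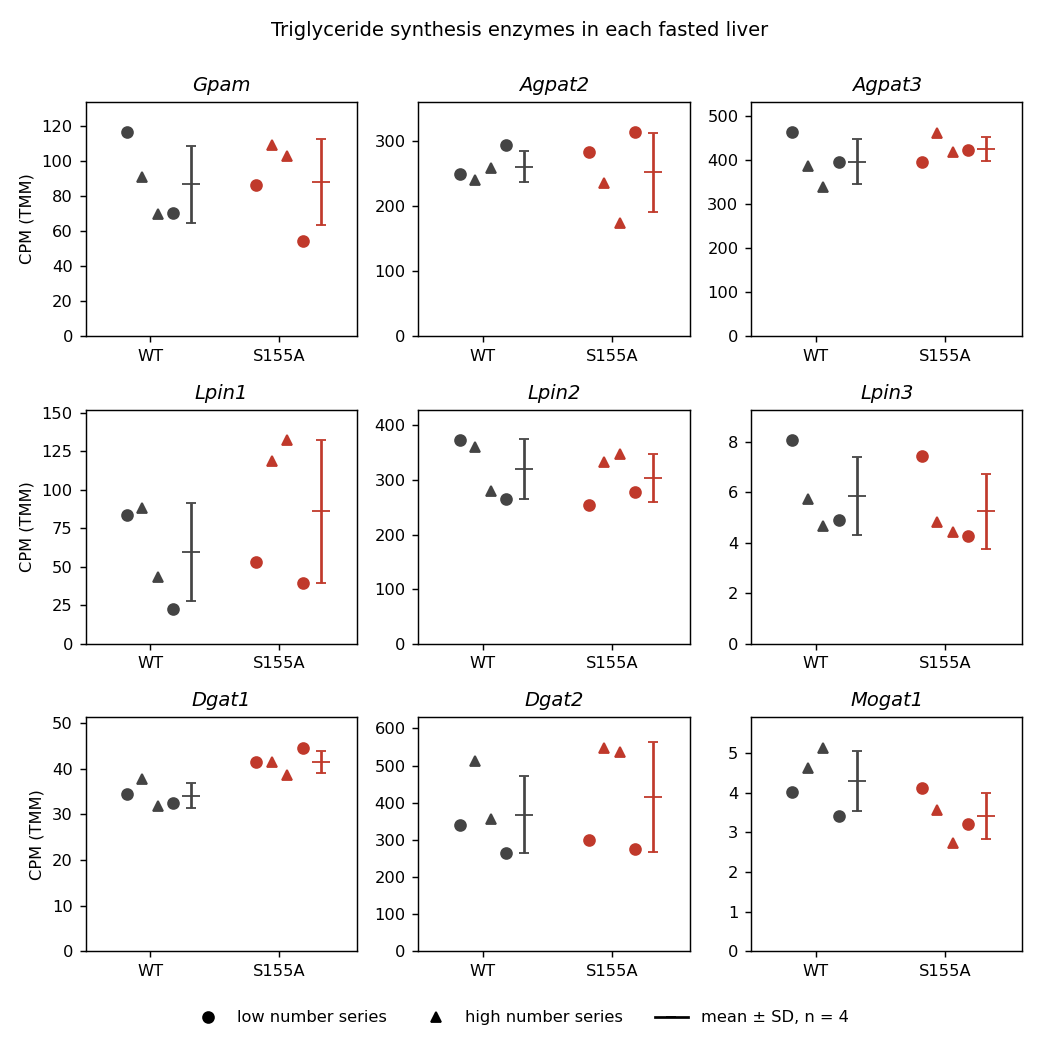
CPM of each enzyme (y axes, 1 panel per gene, from 0) in the 4 WT and 4 S155A livers; points are mice, and the mean and SD of each genotype are drawn beside them. In Dgat1 the S155A mice lie between 38.6 and 44.6 and the WT mice between 31.7 and 37.8; in the other 8 panels the genotypes overlap.

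**Figure D2:**
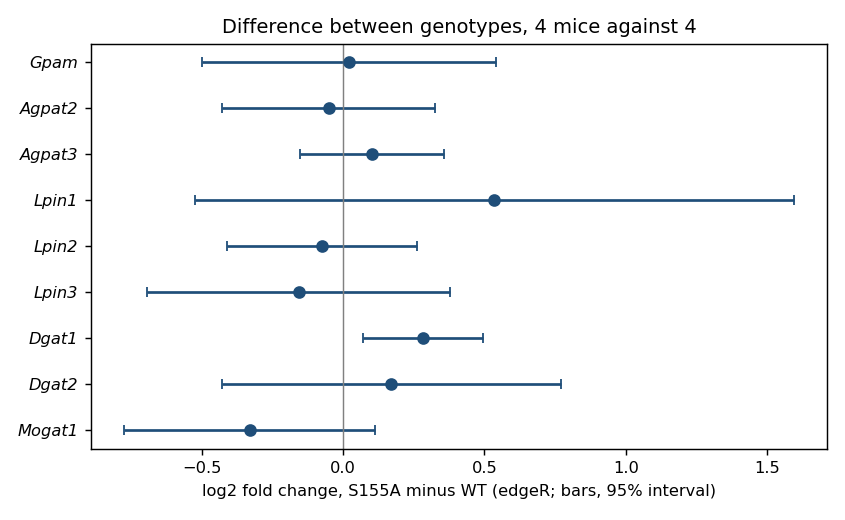
log2 fold change of each enzyme, S155A minus WT, from edgeR (x axis), with bars for the 95% interval, 4 mice against 4. The interval of Dgat1, 0.07 to 0.50, lies above 0, the other 8 include 0, and that of Lpin1 is the widest of the 9, from -0.52 to 1.59.

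The first step was represented by Gpam (ENSMUSG00000024978, chromosome 19, 55067268 to 55127238, reverse strand of GRCm38), which encodes the glycerol-3-phosphate acyltransferase of the outer mitochondrial membrane. Gpam was at 117, 91.0, 69.6 and 70.2 CPM in WT replicates 1 to 4 and at 86.6, 109, 103 and 54.1 CPM in S155A replicates 1 to 4. The highest value was in a WT mouse and the lowest in an S155A mouse, and the groups overlapped. The log2 fold change was 0.022 (SE 0.23, n = 4 and 4, edgeR adjusted p = 0.999), with a 95% interval of -0.50 to 0.54.

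The second step was represented by Agpat2 and Agpat3, which encode acyltransferases of lysophosphatidate. AGPAT2 is the isoform whose loss causes lipodystrophy. Agpat2 (ENSMUSG00000026922, chromosome 2, 26593057 to 26604417, reverse strand) was at 249, 239.7, 258 and 293 CPM in WT and at 283, 235, 174 and 313 CPM in S155A. The S155A mice held both the lowest and the highest value, so the WT values fell inside their range. The difference on the log2 scale was -0.050 (SE 0.17, edgeR adjusted p = 0.996). Agpat3 (ENSMUSG00000001211, chromosome 10, 78269178 to 78352489, reverse strand) was at 463, 387, 339.8 and 395 CPM in WT and at 397, 463, 419 and 424 CPM in S155A. WT replicate 1 was above every S155A mouse, and the other 3 WT mice were below every S155A mouse, but both orders rested on near ties. WT replicate 1 was at 463.1 CPM and S155A replicate 2 at 462.6 CPM. WT replicate 4 was at 395.0 CPM and S155A replicate 1 at 396.8 CPM. On the log2 scale Agpat3 differed by 0.10 (SE 0.11, edgeR adjusted p = 0.993).

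The third step is carried out by the lipins, phosphatidate phosphatases of which Lpin1 is also known as a coactivator of PPARα with PGC-1α and as a gene that fasting raises in liver. Lpin1 (ENSMUSG00000020593, chromosome 12, 16535669 to 16610966, reverse strand) was at 83.5, 87.9, 43.4 and 22.3 CPM in WT and at 53.3, 119, 132 and 39.3 CPM in S155A. Both genotypes held mice of low and of high Lpin1, over a 5.94-fold range. Its SD of log2 CPM within genotypes was 0.90, above that of 94.4% of genes tested. The log2 fold change was 0.54 (SE 0.48, edgeR adjusted p = 0.993), and the interval reached from -0.52 to 1.59. Leaving out S155A replicate 3 brought it to 0.25, and leaving out WT replicate 4 brought it to 0.26.

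Lpin2, the main lipin of this tissue by RNA, varied less. Lpin2 (ENSMUSG00000024052, chromosome 17, 71182560 to 71249817, forward strand) was at 373, 361, 279.5 and 265 CPM in WT and at 254, 334, 348 and 279 CPM in S155A. The genotypes overlapped over most of their range, and the log2 fold change was -0.07 (SE 0.15, edgeR adjusted p = 0.996). Lpin3 (ENSMUSG00000027412, chromosome 2, 160880670 to 160906002, forward strand) was the least abundant lipin, with 168 to 433 counts per library. It was at 8.07, 5.74, 4.67 and 4.91 CPM in WT and at 7.45, 4.82, 4.43 and 4.27 CPM in S155A. One mouse of each genotype stood above the rest, both with the replicate number 1, and the log2 fold change was -0.16 (SE 0.24, edgeR adjusted p = 0.993).

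The last step is carried out by the unrelated enzymes DGAT1 and DGAT2. DGAT1 is known for re-esterifying fatty acids from outside the cell, and DGAT2 for using newly made ones. Dgat1 (ENSMUSG00000022555, chromosome 15, 76502015 to 76511953, reverse strand) was at 34.4, 37.8, 31.7 and 32.4 CPM in WT and at 41.4, 41.5, 38.6 and 44.6 CPM in S155A. Every S155A mouse was above every WT mouse, with the closest pair at 37.8 and 38.6. The log2 fold change was 0.28 (SE 0.095), a fold of 1.22 with a 95% interval of 1.05 to 1.41. The unadjusted p was 0.014, the 106th smallest of 14629, and the edgeR adjusted p was 0.993. In the exact permutation test of log2 CPM, two-sided, p was 0.0286, which is the smallest that 4 mice against 4 can give. The within-genotype SD of Dgat1 was 0.10, and 5.64% of genes tested had a smaller one.

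The Dgat1 difference did not rest on 1 mouse. Leaving out each mouse in turn gave log2 fold changes of 0.25 to 0.34, the other alternatives gave 0.25 to 0.29, and the unadjusted p stayed between 0.0058 and 0.043 in all 19 alternatives. Without S155A replicate 3, the library with lymphocyte markers, it was 0.32, and without WT replicate 2, the library with acinar markers, it was 0.34. The gap between the groups depended on the scaling: with library size alone, WT replicate 2 (37.4 CPM) was above S155A replicate 3 (36.9 CPM).

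Dgat2 (ENSMUSG00000030747, chromosome 7, 99153658 to 99182719, reverse strand) was at 340.3, 512, 357 and 264 CPM in WT and at 299, 548, 536 and 275 CPM in S155A. Replicates 2 and 3 of S155A and replicate 2 of WT were above the other 5 mice, so that both genotypes spanned almost the same range. On the log2 scale Dgat2 differed by 0.17 (SE 0.27, edgeR adjusted p = 0.993).

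A second route to diacylglycerol starts from monoacylglycerol, by the acyltransferase that Mogat1 encodes. Mogat1 (ENSMUSG00000012187, chromosome 1, 78510991 to 78538173, forward strand) had 104 to 244 counts per library. It was at 4.01, 4.62, 5.14 and 3.41 CPM in WT and at 4.12, 3.58, 2.75 and 3.22 CPM in S155A. S155A replicates 3 and 4 were below every WT mouse, and the other S155A mice were inside the WT range. The log2 fold change was -0.33 (SE 0.20, edgeR adjusted p = 0.993), with a 95% interval of -0.77 to 0.11.

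Levels were compared between enzymes as CPM per kb of the principal transcript of GENCODE M21. Dgat2 (173) and Agpat2 (172) came first and could not be ordered, since Dgat2 was the lower one in 5 of 8 mice. Agpat3 followed at 68.7 and Lpin2 at 55.3, in that order in all 8 mice. Dgat1 was at 20.03, Gpam at 14.2 and Lpin1 at 13.0, with ranges that overlapped. Mogat1 at 3.14 and Lpin3 at 1.599 were the lowest, in that order in all 8 mice. Dgat1 and Gpam exchanged places when the union of all exons gave the length.

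**Figure D3:**
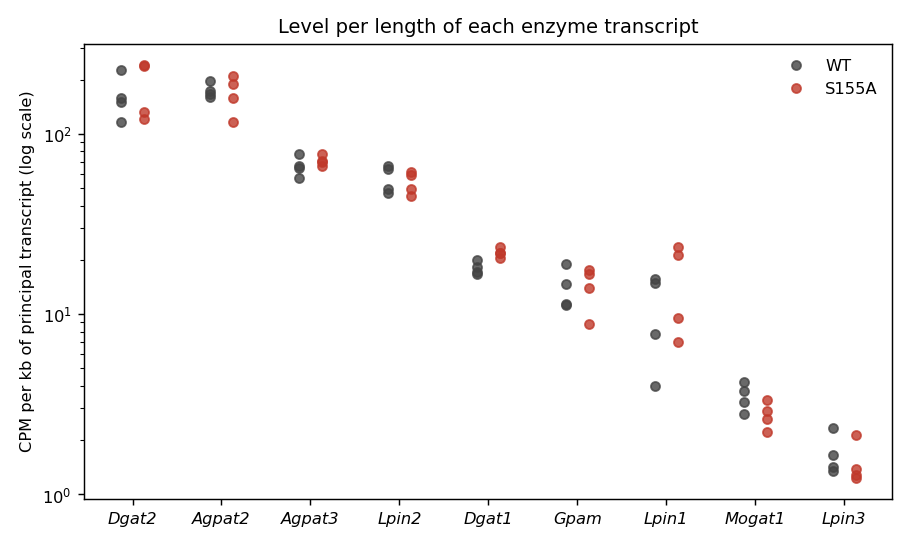
CPM per kb of the principal transcript (y axis, log scale) for each enzyme, 1 point per mouse and genotype by colour, in order of the mean over 8 mice. Dgat2 and Agpat2 lie highest, around 173 and 172, and Lpin3 lowest at 1.599; Lpin1 spreads over a wider range than its neighbours.

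Within the lipins, per kb, Lpin2 supplied 83.0% ± 5.15 (SD, n = 4) of the RNA in WT and 77.1% ± 6.73 in S155A. The share of Lpin1 was 14.5% ± 5.30 in WT and 20.6% ± 7.28 in S155A. The genotypes overlapped, with 7.62% to 19.3% in WT mice and 12.2% to 27.3% in S155A mice. Dgat2 supplied 89.7% ± 1.97 of the DGAT RNA in WT and 88.3% ± 4.199 in S155A. Agpat2 supplied 72.5% ± 3.27 and 69.6% ± 5.86 of the RNA of the AGPAT pair.

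Ratios of 2 enzymes within a library do not depend on the scaling between libraries. The Dgat2 to Dgat1 ratio differed by -0.15 on the log2 scale (two-sided exact permutation p = 0.714, adjusted over 4 ratios 0.952), S155A minus WT. The Lpin1 to Lpin2 ratio differed by 0.62 (exact permutation p = 0.314, adjusted 0.8). The Agpat3 to Agpat2 ratio differed by 0.19 (exact permutation p = 0.400, adjusted 0.8). The ratio of Gpam to Gpat4, the acyltransferase of the same step in the endoplasmic reticulum, differed by -0.0057 (exact permutation p = 1, adjusted 1). None of these 4 differences was larger than the spread between mice.

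Some of the enzymes varied together from mouse to mouse. Over the 8 mice, Agpat2 was low where Lpin1 was high (Spearman's rho = -0.95, exact permutation p = 0.0011, adjusted over 36 pairs 0.040; Pearson's r = -0.81, p = 0.012, adjusted 0.149). Without the 2 mice farthest from the median of Agpat2, r was -0.89. Agpat2 and Dgat2 gave rho = -0.93 (exact permutation p = 0.0022, adjusted 0.040) and r = -0.83 (p = 0.0019, adjusted 0.069), and r = -0.92 without the 2 farthest mice. Lpin1 and Dgat2 did not pass the adjusted threshold, with r = 0.88 and rho = 0.90 (exact permutation, adjusted p = 0.083 and 0.055), and r was 0.83 without the 2 mice farthest from the median of Lpin1. By rank 2 of 36 pairs passed the adjusted threshold, and by Pearson's r 0 did, with 7 at an unadjusted p under 0.05 in the exact permutation test.

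The label numbers of the mice form a low number series (under 200) and a high number series (over 800), which cross the genotypes. Dgat2 was at 264 to 340.3 CPM in the 4 mice of low number and at 357 to 548 CPM in the 4 of high number, without overlap. The share of all genes without overlap between the series is not given here, so this cannot be read as particular to Dgat2. Agpat2 was at 249 to 313 CPM in the low series and at 174 to 258 CPM in the high series, with overlap. Lpin1 was at 22.3 to 83.5 CPM in the low series and at 43.4 to 132 CPM in the high series, also with overlap. With each series centred and the permutations kept within series, a choice made after seeing the data, 0 of 36 pairs passed the adjusted threshold by r or by rank, with 6 and 5 at an unadjusted p under 0.05 in the exact permutation test. Only 576 permutations are possible in this way. The smallest exact permutation p, 0.0035 by r for Lpin1 and Dgat2, was 0.125 after adjustment. A single pair could therefore not pass, and the 0 does not show that the correlations were absent within series. Agpat2 and Lpin1 then had rho = -0.90 and r = -0.69 (exact permutation, adjusted p = 0.175 and 0.255). Agpat2 and Dgat2 had rho = -0.80 and r = -0.64 (exact permutation, adjusted p = 0.281 and 0.408). Lpin1 and Dgat2 had rho = 0.90 and r = 0.91 (exact permutation, adjusted p = 0.175 and 0.125).

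**Figure D4:**
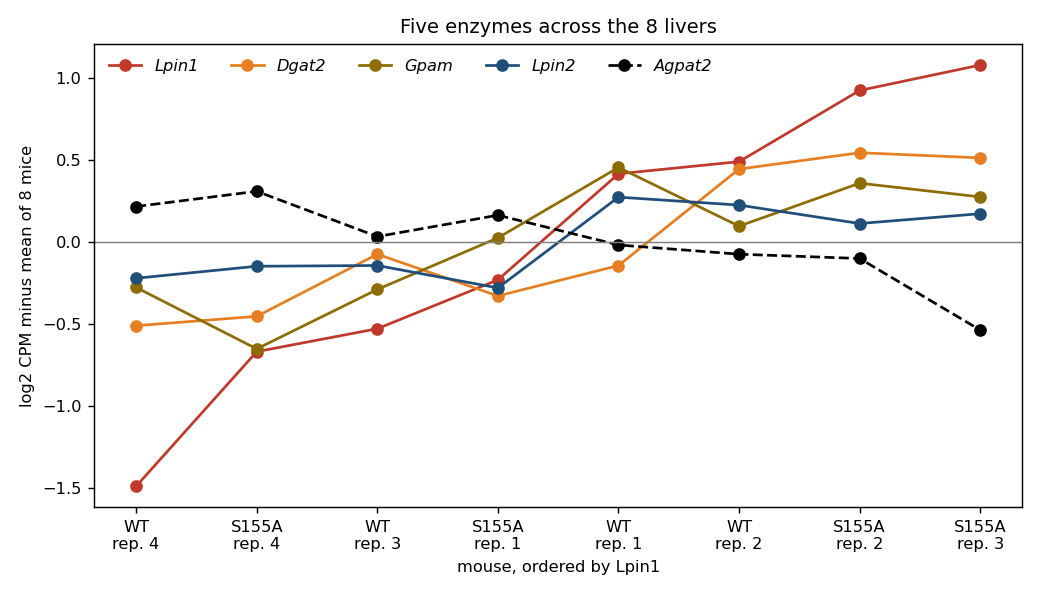
log2 CPM minus the mean of 8 mice (y axis) for Lpin1, Dgat2, Gpam, Lpin2 and Agpat2, with the mice ordered along the x axis by Lpin1. Lpin1 and Dgat2 climb to S155A replicates 2 and 3 at the right, where Agpat2 is at 235 and 174 CPM, its lowest values.

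S155A replicates 2 and 3, the mice highest in Lpin1 and Dgat2, also had the highest summed hepatocyte markers, 131732 and 138731 CPM against 97626 to 119386 in the other 6 mice. Alb alone made up most of this sum, at 63058 to 97392 CPM per mouse. The other hepatocyte markers did not all follow this order. Ttr, Cps1, Serpina1c and Fgb had their highest value in a WT mouse, at 5293, 5262, 3500 and 5015 CPM. Their highest values in S155A mice were 4796, 5032, 3332 and 3763 CPM. Alb, Apoa1, Tat and Cyp2e1 had their highest value in an S155A mouse. The part of the hepatocyte markers in the correlations was not tested. The genes whose profile over the 8 mice was nearest to that of Lpin1, after centring each on its mean, were Tmc7, Herpud1 (an endoplasmic reticulum stress gene) and RP24-378G4.3. Their root mean square differences from Lpin1 were 0.27, 0.28 and 0.28 on the log2 scale.

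Each number series held 2 mice of each genotype, and the labels do not say what the numbers stand for. Within the series the genotypes differed in opposite directions for 5 of the 9 enzymes, a count for which the share of all genes is not given here. For Gpam the difference in mean log2 CPM, S155A minus WT, was -0.40 among the low numbers and 0.41 among the high ones. Lpin1 differed by 0.087 and 1.02, Dgat2 by -0.064 and 0.34, and Agpat2 by 0.14 and -0.30. Dgat1 was higher in S155A in both, by 0.36 and 0.21, and Mogat1 lower in both, by -0.023 and -0.63. The test of the difference between series in edgeR called 0 of the 9 and gave 0 at an unadjusted p under 0.05, where 11.1% of all genes passed. Its smallest p among them was 0.073, for Gpam (edgeR adjusted p = 0.4996).

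**Figure D5:**
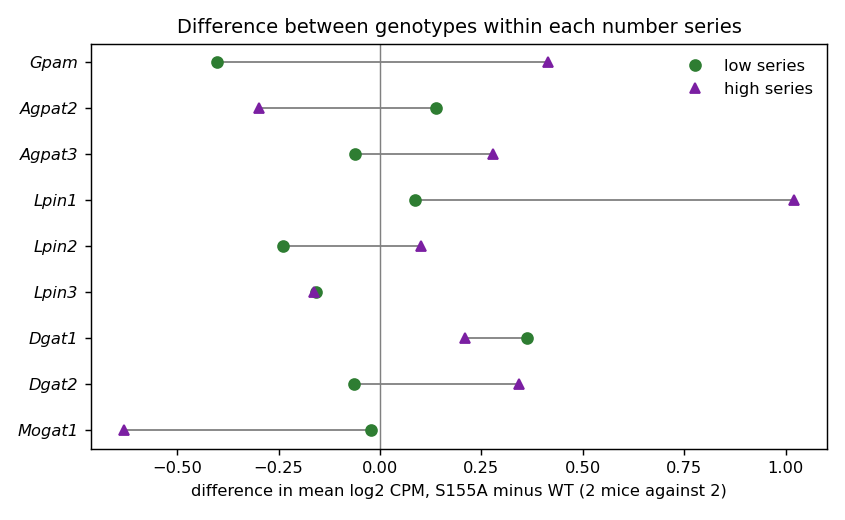
Difference in mean log2 CPM, S155A minus WT (x axis), for each enzyme in the low and the high number series, 2 mice against 2 in each. Gpam lies at -0.40 and 0.41, on either side of 0, and Dgat1 at 0.36 and 0.21.

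Around the 9 enzymes, 54 other genes of the pathway were listed, of which 53 were in the table and 48 were tested. Of these 17 had a higher and 31 a lower level in S155A, with a median log2 fold change of -0.055. edgeR called 0 of the 48, DESeq2 called 0, and 1 had an unadjusted p under 0.05 in edgeR, Acsl4, which encodes an acyl-CoA synthetase with a preference for arachidonate. Acsl4 was at 20.3, 17.3, 12.5 and 15.3 CPM in WT and at 18.2, 24.8, 29.4 and 19.7 CPM in S155A. S155A replicates 2 and 3 were above all WT mice and the other S155A mice were inside the WT range, with a log2 fold change of 0.49 (SE 0.19, edgeR adjusted p = 0.993). Its unadjusted p was 0.071, 0.059, 0.053 and 0.079 in edgeR without WT replicate 3, WT replicate 4, S155A replicate 2 and S155A replicate 3, and 0.054 with a replicate block. In 0 of the 48 genes did the genotypes not overlap. These counts stand beside 3.40% of all genes at such a p and 2.30% without overlap, and are near them. Of 6 genes that make or use glycerol 3-phosphate or carry glycerol 5 were lower, with a median of -0.20. Of 7 other acyltransferases of the first steps 4 were higher and 3 lower. Of 10 transcription factors of triglyceride synthesis and their regulators 4 were higher and 6 lower, with a median of -0.024. Among the 10, Ppargc1a, Insig1 and Insig2 are regulators and not transcription factors.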

How the data were processed

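Estimated counts per gene of 8 livers were analysed (4 WT, 4 S155A, 1 library per mouse). The deposited values are the authors' estimated counts from salmon, scaled for average transcript length and not normalized for library size. The submitters' processing notes name STAR, SAMtools and DESeq2 and build GRCm38; annotation release and use of strand are not given in the sources used here. The libraries were stranded mRNA, and Agpat2, Agpat3, Gpam, Lpin3 and Mogat1 overlap genes on the opposite strand, so some reads could be shared if strand was not used.

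Counts were rounded, filtered with filterByExpr (14629 of 45706 genes kept), TMM-normalized and tested with edgeR 4.0.16 in R 4.3.3 by the quasi-likelihood test, with Benjamini-Hochberg adjustment over all genes and no block. Log2 CPM used a prior count of 2. Standard errors and 95% intervals came from the F statistic. Single genes and ratios were compared by two-sided exact permutation tests. Gene positions and lengths are those of GENCODE M21, which held 45143 of the 45706 identifiers. Replicates were separate mice, and no libraries were copies of each other (least chi-square per gene 40.2 between any pair). The tests were checked on simulated counts.

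The 9 members and the lists were chosen with earlier results of these data known. Named were the members, pathway genes at an unadjusted p under 0.05 or without overlap, and the 3 profiles nearest to the most variable member. Alternatives were DESeq2 1.42.0, limma-voom 3.58.1, other scalings and filters, a robust fit, blocks, leaving out each mouse and, added after seeing the data, centring each number series for the correlations. Of the listed genes, 7 were matched by identifier under older symbols, and Ldaf1 was not matched.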

Additional observations from a re-analysis of the deposited data

How the results depend on the processing

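edgeR called 0 of 14629 genes as reported (smallest adjusted p = 0.758, with 497 at an unadjusted p under 0.05). Its alternatives and limma-voom tested 12110 to 22439 genes and also called 0 (smallest adjusted p = 0.445, without WT replicate 1), with 357 to 894 at an unadjusted p under 0.05. DESeq2 called 6, with 594 at such a p, none of the 6 an enzyme. The number of enzymes without overlap was 0 with library size alone and 1 to 2 when each mouse was left out, the highest without WT replicate 1, when Agpat3 joined Dgat1. The share of all genes without overlap is not given for these alternatives. With a mouse left out, a gap between genotypes also arises more easily, so these counts cannot be read as particular to the enzymes. With each number series centred, 0 pairs of enzymes passed by rank, but a single pair could not have passed there. Other pathway genes at an unadjusted p under 0.05 numbered 2 with a replicate block (Acsl3 and Selenoi), 3 with a number series block (Acsl4, Selenoi and Insig2) and 0 to 5 when each mouse was left out. Over all genes, 579 of 14629 had such a p with a replicate block and 621 of 14629 with a number series block. Without S155A replicate 1, where 5 pathway genes passed, 894 of 14840 genes did. Without WT replicate 3, where 0 pathway genes passed, 357 of 14881 genes did.

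The direction of small differences was not stable. Gpam was -0.019 with library size alone, -0.0037 with a number series block and -0.088 to 0.20 when each mouse was left out. In the same way Agpat2 ranged from -0.17 to 0.092, Lpin2 from -0.15 to 0.014 and Lpin3 from -0.38 to 0.044, and the log2 ratios of Dgat2 to Dgat1 from -0.33 to 0.062 and of Gpam to Gpat4 from -0.17 to 0.28. Agpat3, Lpin1, Dgat1, Dgat2 and Mogat1 kept their direction in all 19 alternatives, but when each mouse was left out Agpat3 ranged from 0.036 to 0.19, Lpin1 from 0.25 to 0.79 and Dgat2 from 0.016 to 0.37. The log2 ratios of Lpin1 to Lpin2 ranged from 0.30 to 0.90 and of Agpat3 to Agpat2 from 0.031 to 0.31.

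The replicate numbers are not stated to pair mice, and same-numbered mice had correlations of -0.11 to 0.17, with 3 of 4 correlating best with their own number. The replicate block called 0 genes in edgeR, with 579 at an unadjusted p under 0.05, and changed no call of an enzyme. With 4 mice per genotype, the intervals of Gpam, Lpin1, Lpin3, Dgat2 and Mogat1 include differences of over 0.5 on the log2 scale.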

Other observations

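Of 48 pathway genes tested, 30 differed between genotypes in opposite directions in the 2 number series, and 10 had an unadjusted p under 0.05 for the difference between series in edgeR, with 0 called after adjustment, where 11.1% of all genes had such a p. The share of all genes with opposite directions is not given here, so the 30 cannot be read as particular to this pathway. The 2 lists around the substrates, glycerol 3-phosphate and acyl-CoA, are given here, and were singled out after their values were seen. All differences are S155A minus WT on the log2 scale, first among the low and then among the high numbers. Of the 6 tested genes that make or use glycerol 3-phosphate or carry glycerol, 4 were higher among the low numbers and lower among the high ones. Gpd2, the mitochondrial glycerol-3-phosphate dehydrogenase, which uses up glycerol 3-phosphate, differed by 0.20 and -1.01 (edgeR adjusted p for the difference between series = 0.253). Gpd1, its cytosolic counterpart, differed by 0.18 and -0.64, the glycerol kinase Gk by 0.074 and -0.58, and the glycerol channel Aqp3 by 0.66 and -1.21. Aqp3 was near the floor, with at most 1.81 CPM in WT and 0.63 CPM in S155A. Gpd1l (-0.18 and 0.13) and the glycerol channel Aqp9 (-0.16 and 0.16) went the other way. Of the 7 tested genes of acyl-CoA supply, Acsl1 (0.25 and -0.59) and Acsl5 (0.13 and -0.41) had the first pattern. Acsl3 (0.58 and 0.32), Acsl4 (0.10 and 0.87) and Slc27a5 (0.026 and 0.35) were higher in both series, and Slc27a2 (-0.039 and -0.096) and Slc27a4 (-0.037 and -0.38) were lower in both.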
